A study of Mus musculus with 6 samples.

Results

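The vacuolar ATPase (V-ATPase), the Ragulator complex with its Rag GTPases, and the MiT transcription factors were examined in bone marrow derived macrophages (BMDMs) of the mouse, cells matured in a dish from marrow precursors. The set was all rows of the count table for subunits of the V1 and V0 sectors (Atp6v1 and Atp6v0 genes) and accessory subunits (Atp6ap1, Atp6ap2), together with Lamtor1 to Lamtor5, Rraga to Rragd, Tfeb, Tfe3, Mitf, Flcn, Fnip1, Mtor and Rptor. It held 36 of the 16519 genes in the table. Levels were measured by bulk RNA sequencing in 6 libraries, 3 of them from mice that carried both a floxed Trmt61a gene and LysM-Cre (KO) and 3 from mice that carried the floxed gene without Cre (WT). Both groups therefore carried the floxed allele, and only KO carried Cre, a recombinase inserted into the Lyz2 gene and active in myeloid cells, so that an effect of Cre and an effect of losing Trmt61a cannot be told apart. Trmt61a codes for the active subunit of the enzyme writing N1-methyladenosine in tRNA. The labels give no age, stimulus or culture time. Nor do they state that replicates are different animals or dishes, so p-values reflect the spread between these libraries alone, which may be technical.

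The V-ATPase is a rotary proton pump that acidifies lysosomes, endosomes and phagosomes. Its cytosolic V1 sector hydrolyses ATP and its membrane sector V0 carries the protons. On the lysosomal surface the pump contacts Ragulator, which anchors the Rag GTPases; these recruit mTORC1 when amino acids are plentiful. The same platform holds TFEB and TFE3 in the cytosol, and when mTORC1 is inactive these factors enter the nucleus and bind E-box sequences upstream of lysosomal genes, V-ATPase genes among them. In macrophages the pathway serves phagosome acidification and the digestion of ingested material.

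The libraries held between 37021855 and 41033179 gene counts, and the 36 members together took between 0.604% and 0.673% of them. Trmt61a was at 0.531, 0.756 and 0.539 CPM (counts-per-million) in KO 1, KO 2 and KO 3 and at 4.95, 3.89 and 5.06 CPM in WT 1, WT 2 and WT 3; the log2 fold change was -2.92 ± 0.28 (standard error, edgeR adjusted p = 0.00219), so the labels held for the targeted gene. All 8 macrophage markers of the list were detected, with a summed level between 10592 and 11924 CPM in KO and between 10804 and 11499 CPM in WT. Markers of melanocytes, which also use Mitf, summed to under 1 CPM in each library, and 4 of the 5 detected mast cell and basophil markers were under 1 CPM on average. Neutrophil markers summed to between 1609 and 2573 CPM in KO and between 1615 and 2935 CPM in WT.

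Of the 34 members that could be tested, 0 passed the test between KO and WT (edgeR quasi-likelihood test, Benjamini-Hochberg adjusted over 12605 genes). Of all tested genes, 0.0317% passed. The adjusted p was 0.999949 for each of the 34 members, and 0 members were called by DESeq2, which called 0.114% of all genes it tested, or by limma voom, which called 0.0397%. At an unadjusted p under 0.05 edgeR gave 1 member, Lamtor2, or 2.94% of the tested members, against 3.1% of all tested genes. Most of the differences were bounded closely. For 30 of the 34 members the 95% interval lay within 1.25-fold in either direction. For 32 it lay within 1.5-fold, Atp6v0d2 and Rragb being the exceptions. Of the 12605 tested genes, 6423 had an interval within 1.25-fold and 9121 within 1.5-fold. Those genes were not matched to the members for level.

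The direction of these small differences was uneven. The log2 fold change lay above 0 for 27 of the 34 members (79.4%), with a median of 0.04, where 50.04% of all tested genes lay above 0 and their median was 8.37e-05. In 5 members (14.7%) every KO library lay above every WT library, which was so for 4.31% of all tested genes, and in 0 members did every KO library lie below every WT library, as in 4.34% of all tested genes. These 5 were Atp6v1a, Atp6v0c, Atp6v0d1, Lamtor2 and Lamtor4. The members share libraries and are not independent of each other, and with each library left out in turn 21 to 29 members lay above 0. The fewest, 21, lay above 0 without KO 1, where the median was 0.05, and without WT 2, where it was 0.00826. In bulk RNA a lower level from fewer cells of a type and one from less RNA per cell cannot be told apart.

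**Figure D1:**
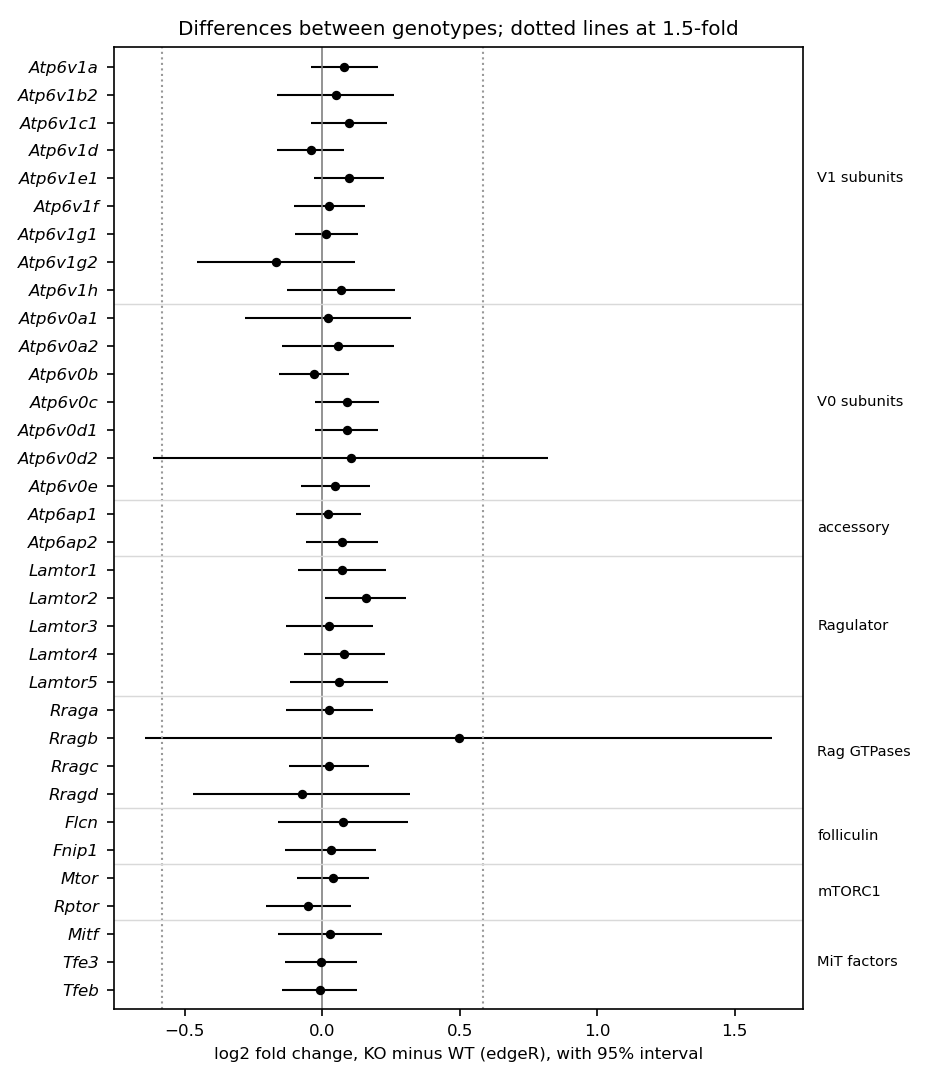
Log2 fold change of each tested member, KO minus WT, with its 95% interval from edgeR (horizontal axis) by gene and role (vertical axis). All intervals but that of Lamtor2 cross 0, and those of Atp6v0d2 and Rragb pass the dotted lines at 1.5-fold.

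Because MiT factors bind the E-box core CACGTG, the promoters of the members were searched for it. Promoter windows from RefSeq (GRCm38.p6), running from 250 bases before to 50 bases after an annotated start, matched 29 of the 36 members. The core, which reads the same on both strands, stood in the promoters of 9 members (31.0%; exact 95% binomial interval 15.3% to 50.8%), against 8.09% of the 27025 genes in the same table. The longer motif TCACGTG, or CACGTGA on the other strand, stood in the same number of member promoters, 9, and in 4.29% of all genes; each of the 13 cores found in members had this extension. The full 10-base CLEAR palindrome, which extends the core on both sides, was found in 0 member promoters and in 0.370% of all genes. A match describes these letters only, is not a measured binding site and does not tell which factor might bind there. The 27025 genes were not limited to those tested here, so the members were not compared with expressed genes alone.

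The sequences below show the core in the members with the clearest roles in the pathway, with up to 40 bases on either side where these lie before the start and 12 bases otherwise; capitals mark every CACGTG in the stretch shown, and each is written 5′ to 3′ on the strand of the gene (GRCm38).
Atp6v1a, catalytic subunit A, chr16:44139345-44139430, minus strand: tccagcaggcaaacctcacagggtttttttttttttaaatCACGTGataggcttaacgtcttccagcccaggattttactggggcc
Atp6v0d1, subunit d, chr8:105566050-105566079, minus strand: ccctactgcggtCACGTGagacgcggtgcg
Atp6v0b, proteolipid c″, chr4:117887348-117887377, minus strand: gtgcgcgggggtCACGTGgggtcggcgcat
Lamtor1, membrane anchor of Ragulator, chr7:101905729-101905814, plus strand: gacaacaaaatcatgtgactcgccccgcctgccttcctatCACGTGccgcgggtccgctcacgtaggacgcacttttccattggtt
Lamtor4, Ragulator subunit, chr5:138255338-138255423, plus strand: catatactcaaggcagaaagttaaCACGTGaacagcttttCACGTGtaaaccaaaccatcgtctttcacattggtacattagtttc
Rragc, RagC, chr4:123917281-123917366, plus strand: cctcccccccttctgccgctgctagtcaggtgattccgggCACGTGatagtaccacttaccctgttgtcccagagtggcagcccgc
Fnip1, partner of folliculin, chr11:54438064-54438149, plus strand: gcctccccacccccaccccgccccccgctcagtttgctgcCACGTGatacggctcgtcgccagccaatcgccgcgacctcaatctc

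Counted from the start to the first base of the core, the motif lay at -131 in Atp6v1a, -112 in Rragc, -75 in Fnip1 and -68 in Lamtor1. Lamtor4 held cores at -120 and -104, and Atp6v0b at -36 and -18. In Atp6v0d1 and Atp6v0e, the V0 subunit e, the core lay at the start itself, at -3 and 3. Rragb, which encodes RagB, held 3 cores, at -127, -36 and -3. The start is that of the promoter window, which is not the outer end of the gene in every member. The stretch shown for Atp6v1a, 44139345 to 44139430, lies inside its gene span, 44085402 to 44139702. The promoter window of Rragb, 153139708 to 153140007, lies inside its gene span, 153137644 to 153190192. For Fnip1 the stretch shown, 54438064 to 54438149, runs past the gene start at 54438107. The 9 members with the core had log2 fold changes between -0.03 and 0.49 with a median of 0.07. The 0.49 was that of Rragb, which had low counts and an interval from -0.65 to 1.64. The next highest was 0.09 in Atp6v0d1. The 18 tested members matched to a promoter without the core had between -0.17 and 0.16 with a median of 0.02. In either set 0 were called, and these medians were not taken with libraries left out.

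**Figure D2:**
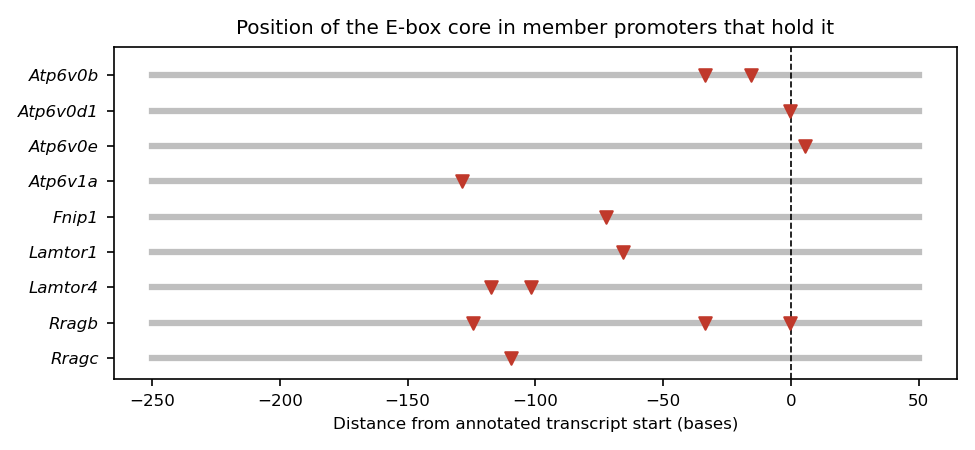
Position of the E-box core (triangles) in the 9 member promoters that hold it, by gene (vertical axis). The horizontal axis is the distance in bases from the annotated start of the promoter window (dashed line at 0), which can lie inside the gene. The 13 cores lie between -131 and 3, and Rragb holds 3 of them.

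Levels differed far more between members than between genotypes. On the scale of CPM per kb of merged exon, which allows genes to be compared, Atp6ap1 was highest among the members at 169 ± 3.68 (SD over 6 libraries), followed by the proteolipid genes Atp6v0c at 156 ± 6.04 and Atp6v0b at 142 ± 5.33. Atp6v0d2 came next at 129 ± 29.9 and Atp6v1g1 at 123.5 ± 2.71, and given the spread of Atp6v0d2 these neighbours overlap. The MiT factors and mTORC1 genes were in the lower part of the order, with Tfe3 at 25.3 ± 1.029, Tfeb at 11.2 ± 0.350 and Mtor at 6.70 ± 0.191 CPM per kb. At the bottom stood Rragb at 0.497 ± 0.266, Atp6v0e2 at 0.0964 ± 0.0536 and Atp6v1c2, which had 1 count in WT 3 and 0 counts in the other libraries. Atp6v0b led the members at 291 when the longest transcript set the length, so the order at the top depends on the gene model.

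**Figure D3:**
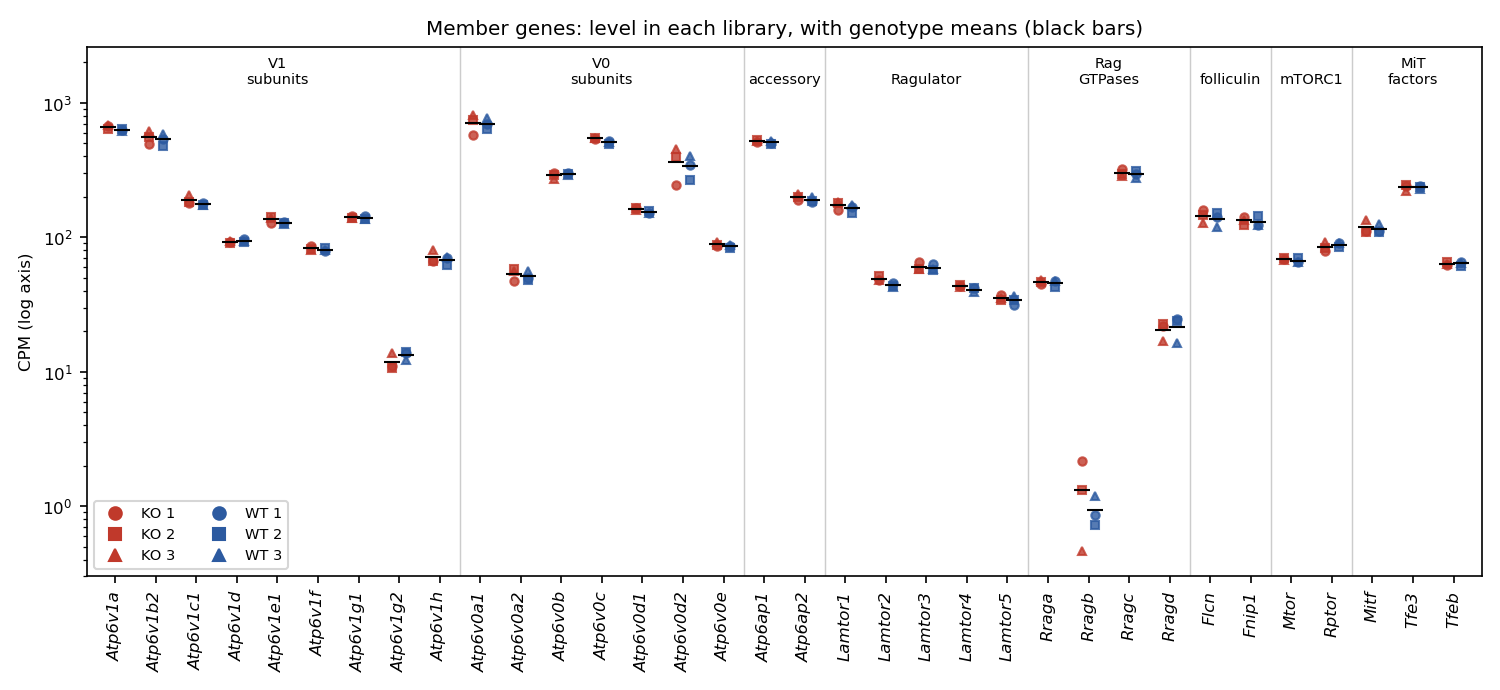
Level of each tested member in CPM (vertical log axis) by gene and role (horizontal axis), with 1 point for each library (KO red, WT blue) and a black bar for the mean of each genotype. Points of both genotypes lie together for nearly every gene, and Atp6v0d2 spreads from 243 to 450 CPM.

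Of the 10 V1 genes 9 were tested, and 7 of these lay above 0; the median log2 fold change was 0.05. With each library left out in turn 5 to 7 lay above 0. Atp6v1a (chromosome 16, 44085402 to 44139702) encodes the catalytic subunit A, which hydrolyses ATP. It was at 667, 639 and 686 CPM in KO 1 to KO 3 and at 632, 633 and 616 CPM in WT 1 to WT 3. The genotypes did not overlap, but the closest values, 639 and 633 CPM, were less far apart than the KO libraries among themselves, and the log2 fold change was 0.08 with a 95% interval from -0.04 to 0.20. Atp6v1b2, the B subunit expressed in macrophages, was at 492, 556 and 613 CPM in KO and at 538, 477 and 587 CPM in WT. Its groups overlapped throughout, with a log2 fold change of 0.05.

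The stalk and regulatory subunits of V1 were similar. Atp6v1e1, part of the peripheral stalks, was at 128, 141 and 140 CPM in KO and at 130.0, 127 and 125 CPM in WT, a log2 fold change of 0.10 (interval -0.03 to 0.22). Atp6v1c1, the subunit that leaves when V1 and V0 come apart, was at 180, 183 and 205 CPM in KO and at 181, 174 and 174 CPM in WT; KO 3 was high and KO 1 lay within the WT range. Atp6v1d, the central rotor shaft, had a log2 fold change of -0.04 (-0.16 to 0.08) and Atp6v1f, its partner, 0.02 (-0.10 to 0.15). Atp6v1h, which couples ATP hydrolysis to proton transport, had 0.07 (-0.13 to 0.26). Atp6v1g1, the ubiquitous stalk subunit G, was among the steadiest members, from 136 to 144 CPM across the 6 libraries, with a log2 fold change of 0.01. Its paralog Atp6v1g2 was at 11.1, 10.7 and 13.8 CPM in KO and at 13.7, 14.1 and 12.2 CPM in WT; KO 1 and KO 2 lay below WT and KO 3 within it, and the log2 fold change of -0.17 (-0.46 to 0.12) was the lowest among the members with all 6 libraries. It ran from -0.29 to -0.10 with each library left out in turn, and Rragd was lower without KO 2 (-0.16 against -0.10) and without WT 3 (-0.24 against -0.23).

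In the V0 sector 7 of 8 genes were tested, 6 lay above 0 and the median log2 fold change was 0.06; with each library left out in turn 4 to 6 lay above 0. Atp6v0c (chromosome 17, 24163865 to 24169678) encodes the proteolipid that forms most of the proton-carrying ring. It was at 538, 548 and 545 CPM in KO and at 521, 497 and 511 CPM in WT, with a log2 fold change of 0.09 and an interval from -0.03 to 0.21. Every KO library was above every WT library, and of the tested members Atp6v0c had the smallest spread within genotypes. Atp6v0d1 (chromosome 8, 105524461 to 105566064), the widely expressed d subunit that joins the ring to the rotor, was at 165, 166 and 160.2 CPM in KO and at 152, 158 and 151 CPM in WT, a log2 fold change of 0.09 (-0.03 to 0.20). It too separated the genotypes, by 160.2 against 158 CPM at the closest. Atp6v0b, encoding c″ of the ring, lay the other way at 302, 292 and 271 CPM in KO and 298, 294 and 289 CPM in WT, where the groups overlapped and the log2 fold change was -0.03.

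The remaining V0 genes did not separate the genotypes. Atp6v0e was at 86.6, 87.8 and 91.6 CPM in KO and at 85.6, 83.9 and 87.3 CPM in WT, a log2 fold change of 0.05. Atp6v0a1, an a subunit that steers the pump to its membrane, was at 578, 744 and 812 CPM in KO and at 694, 637 and 769.8 CPM in WT, and its log2 fold change of 0.02 had an interval from -0.28 to 0.32. KO 1 was lowest and KO 3 highest, so the WT values lay inside the KO range. Atp6v0a2, which serves the Golgi and endosomes, had a log2 fold change of 0.06 (-0.15 to 0.26). Atp6v0e2, not tested for its low counts, had 4, 4 and 9 counts in KO and 16, 8 and 13 counts in WT. The accessory subunit Atp6ap1, which assists assembly of V0, stayed between 496 and 525 CPM in the 6 libraries with a log2 fold change of 0.02, and Atp6ap2, the prorenin receptor, had 0.07 (-0.06 to 0.20).

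With all 6 libraries the 5 Ragulator genes lay above 0, and their median was 0.07 on the log2 scale. Lamtor3 turned to -0.032 without KO 1 and to -0.0073 without WT 2, Lamtor1 fell to 0.013 without WT 2, and Lamtor5 ran from 0.0024 to 0.12 with each library left out in turn. Lamtor2 (p14; chromosome 3, 88549819 to 88552951), which forms a heterodimer with Lamtor3 that binds the Rag GTPases, was at 48.1, 51.2 and 48.0 CPM in KO and at 45.9, 43.2 and 42.7 CPM in WT. The genotypes did not overlap, and the log2 fold change was 0.16 ± 0.07 (standard error), its interval 0.01 to 0.30 (edgeR unadjusted p = 0.0388, adjusted p = 0.999949). The unadjusted p was 0.0647 with DESeq2 and 0.0557 with the replicate block in edgeR. Without KO 2, WT 2 or WT 3 the edgeR unadjusted p was 0.127, 0.0989 and 0.107. Lamtor4 (chromosome 5, 138255482 to 138259395), in the roadblock pair with Lamtor5, was at 43.1, 44.0 and 42.8 CPM in KO and at 41.8, 42.0 and 38.8 CPM in WT. The groups were separated by less than 1 CPM at the closest, and the log2 fold change was 0.08 (-0.07 to 0.23).

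Lamtor1, the lipid-anchored subunit that wraps around the others, was at 159, 180.1 and 183 CPM in KO and at 169, 152 and 174 CPM in WT, a log2 fold change of 0.07 (-0.09 to 0.23). KO 1 and WT 2 were low, so the groups overlapped. Lamtor3 (MP1) had a log2 fold change of 0.03 (-0.13 to 0.18) and Lamtor5 had 0.06 (-0.12 to 0.24). Lamtor1 shares 18.7% of its merged exon bases with Lrrc51 on the opposite strand, and because the sources used here do not give the strand setting of the counting, reads of the pair cannot be told apart.

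Among the Rag GTPases, of which RagA or RagB pairs with RagC or RagD, Rragc was the most abundant by CPM, between 275 and 319.7. Its values were 319.7, 297 and 284 CPM in KO and 298, 311 and 275 CPM in WT, a log2 fold change of 0.02 (-0.12 to 0.17). Rraga was at 44.8, 46.8 and 48.2 CPM in KO and at 47.6, 42.4 and 47.1 CPM in WT, a log2 fold change of 0.03. Neither gene separated the genotypes. Rragd, a known MiT target, was at 21.7, 22.7 and 16.9 CPM in KO and at 24.6, 23.7 and 16.2 CPM in WT, with -0.08 (-0.47 to 0.32); replicate 3 was low in both genotypes. Rragb (chromosome X, 153137644 to 153190192) was at 2.18, 1.31 and 0.466 CPM in KO and at 0.866, 0.728 and 1.19 CPM in WT, from 19 to 82 counts. Its log2 fold change of 0.49 was the largest among the members but had an interval from -0.65 to 1.64, and without KO 1 it was -0.07. Rraga and Rragb are close paralogs, so reads that fit both are uncertain.

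Folliculin (Flcn) and its partner Fnip1 form the GTPase activator of RagC and RagD that is needed to hold TFEB and TFE3 in the cytosol. Flcn was at 159, 147 and 127 CPM in KO and at 141, 150.2 and 119 CPM in WT, a log2 fold change of 0.08 (-0.16 to 0.31). Fnip1 was at 141.7, 123.5 and 135.0 CPM in KO and at 124.0, 143.9 and 123.1 CPM in WT, a log2 fold change of 0.03 (-0.13 to 0.20). Both overlapped between genotypes. Of the mTORC1 genes, Mtor, the kinase, was between 65.3 and 69.6 CPM in the 6 libraries with a log2 fold change of 0.04 (-0.09 to 0.17), and Rptor, the scaffold that binds the Rag GTPases, had -0.05 (-0.20 to 0.10).

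The 3 MiT factors of the set differed little on average between the genotypes. Tfeb (chromosome 17, 47737037 to 47792416) was at 61.7, 65.8 and 63.2 CPM in KO and at 65.7, 61.3 and 64.6 CPM in WT, a log2 fold change of -0.01 (-0.15 to 0.13). Tfe3 was at 239, 245 and 219.6 CPM in KO and at 241, 237 and 227 CPM in WT, with -0.01 (-0.14 to 0.12). Mitf was at 112, 109.7 and 134 CPM in KO and at 112, 110.1 and 126 CPM in WT, with 0.03 (-0.16 to 0.22); replicate 3 was high in both genotypes. These are RNA levels, and the nuclear entry through which Tfeb and Tfe3 act is not measured by them.

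Where a subunit has several genes, the share of each paralog in the summed CPM per kb was taken. These are shares of RNA, and the isoform composition of the assembled pump was not measured. For subunit a, Tcirg1 (a3, the isoform of lysosomes and of the osteoclast membrane, which the rule for members did not take in) held 54.96% ± 3.85 in KO and 55.5% ± 2.12 in WT (SD, n = 3), and Atp6v0a1 held 41.9% ± 3.82 and 41.5% ± 2.003. Atp6v0a2 held 3.09% ± 0.0899 in KO and 2.97% ± 0.128 in WT. Tcirg1 itself averaged 655 ± 6.72 CPM in WT and 649 ± 26.4 CPM in KO (SD, n = 3; log2 fold change -0.02).

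For subunit d, Atp6v0d2, the isoform restricted to osteoclasts, macrophages and a few other cells, held 49.4%, 61.1% and 65.0% in KO 1 to KO 3 and 59.9%, 52.7% and 63.7% in WT 1 to WT 3. Its share thus moved more between libraries of a genotype than between genotypes, whose means were 58.5% and 58.7%. For subunit G, Atp6v1g1 held 96.3% ± 0.540 in KO and 95.9% ± 0.277 in WT (SD, n = 3). RagA held 98.0% ± 1.34 in KO and 98.6% ± 0.309 in WT of the RagA and RagB pair, and RagC 95.8% ± 0.495 and 95.5% ± 0.727 of the RagC and RagD pair (SD, n = 3).

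With Tfec, a MiT gene of myeloid cells, counted in, Tfe3 held 41.5% ± 2.52 of the MiT sum in KO and 42.0% ± 1.46 in WT (SD, n = 3). Mitf held 31.3% ± 3.42 and 30.9% ± 2.14, Tfeb 18.4% ± 0.572 and 18.7% ± 0.593, and Tfec 8.75% ± 0.927 and 8.41% ± 1.19. The order of Mitf and Tfeb depends on the gene model. When the longest transcript set the length, Tfeb averaged 27.2 and Mitf 24.0 CPM per kb over all libraries. Of the 15 shares tested, the exact two-sided permutation p was 0.3 at the lowest, where 3 against 3 libraries cannot go below 0.1, and the adjusted p was 1 for each.

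**Figure D4:**
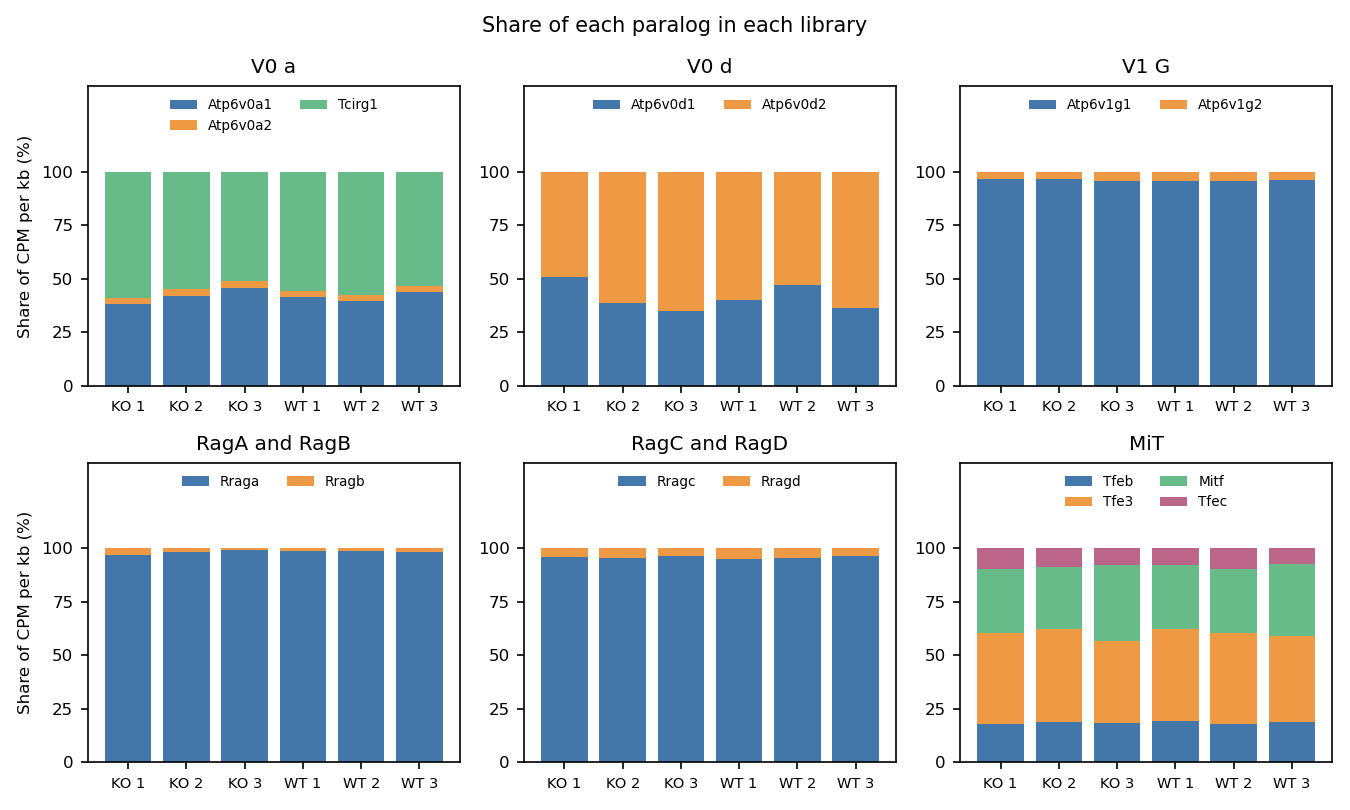
Share of each paralog in the summed CPM per kb of merged exon (vertical axis, percent) in each library (horizontal axis) for 6 families. Atp6v0d2 runs from 49.4% in KO 1 to 65.0% in KO 3, and the bars of subunit G and of both Rag pairs are nearly level across libraries.

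The members differed in how steady they were between libraries of a genotype. The SD of log2 CPM within genotypes had a median of 0.08 among the members, against 0.13 among all tested genes, and 8 members were among the steadiest 5% of tested genes. These were Atp6v0c, Atp6v0d1, Atp6ap1, Atp6v1g1, Atp6v1d, Atp6v0e, Mtor and Atp6v1a. The tested genes were not matched to the members for level, so steadiness and level cannot be told apart in this comparison. At the other end Rragb, Atp6v0d2 and Rragd lay above the 75th percentile, with SDs of 0.80, 0.39 and 0.28. Low counts add to the SD of Rragb, while Atp6v0d2 had between 9156 and 18358 counts.

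Atp6v0d2 (chromosome 4, 19876838 to 19922566) was at 243, 394 and 449.8 CPM in KO and at 344, 266 and 400.0 CPM in WT, 1.85-fold between the lowest and the highest library. Its log2 fold change of 0.10 had an interval from -0.62 to 0.82, which takes in a difference of 1.5-fold in either direction. KO 1 and WT 2 were low and KO 3 and WT 3 high. Atp6v0a1, Atp6v1b2 and Atp6v1h also had KO 1 and WT 2 as their lowest and KO 3 and WT 3 as their highest libraries; these 4 are 11.8% of the tested members, and the same pattern was found in 5.66% of all tested genes. Flcn and Rragc had the opposite order, as 4.93% of all tested genes did.

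Other markers shared part of this order, with KO 1 and WT 2 low. The summed level of the 4 proliferation markers was 195, 264 and 333 CPM in KO 1 to KO 3 and 241, 195 and 329 CPM in WT 1 to WT 3. That of the 8 neutrophil markers was 1609, 2523 and 2573 CPM in KO and 2079, 1615 and 2935 CPM in WT. Of the osteoclast list, which shares fusion genes with macrophages, 7 of 8 genes were in the table, and their sum was 176, 203 and 219 CPM in KO and 224, 175 and 224 CPM in WT. Dcstamp, needed for cell fusion, was at 8.52, 13.0 and 20.4 CPM in KO and at 13.7, 8.46 and 22.6 CPM in WT, whereas Oscar was under 1 CPM in each library. The genes of this list did not all share the order. Acp5, Ctsk, Mmp9 and Dcstamp had KO 1 and WT 2 as their lowest libraries, and Nfatc1, Ocstamp and Oscar did not. Nfatc1, the most abundant of them, was at 113, 107 and 108 CPM in KO and at 117.7, 117.7 and 107.6 CPM in WT. The summed macrophage markers ran from 10592 CPM in KO 3 to 11924 CPM in KO 1. The 6 stromal markers summed to 93.8, 226 and 188 CPM in KO and 144, 92.0 and 147 CPM in WT. At much lower levels, the mast cell and basophil markers summed to 4.43, 7.18 and 6.81 CPM in KO and 6.12, 5.67 and 12.03 CPM in WT, and the lymphocyte markers to 0.770, 2.09 and 1.91 CPM in KO and 1.52, 0.653 and 3.79 CPM in WT. KO 1 and WT 2 were the lowest libraries in these 6 sums of other markers and the highest in the macrophage sum, with WT 2 at 11499 CPM. KO 3 and WT 3 were the highest libraries only in the proliferation and neutrophil sums. Of all tested genes, 15.4% had KO 1 and WT 2 as their lowest 2 libraries and 14.7% as their highest 2. The dendritic cell and melanocyte sums, under 4 CPM in each library, did not have KO 1 and WT 2 as their lowest pair. The part of these cells in the order of Atp6v0d2 was not tested. Without KO 1 and WT 2 together, 0 members were called and the log2 fold changes of the 34 members had a median of 0.05, with 24 above 0.

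**Figure D5:**
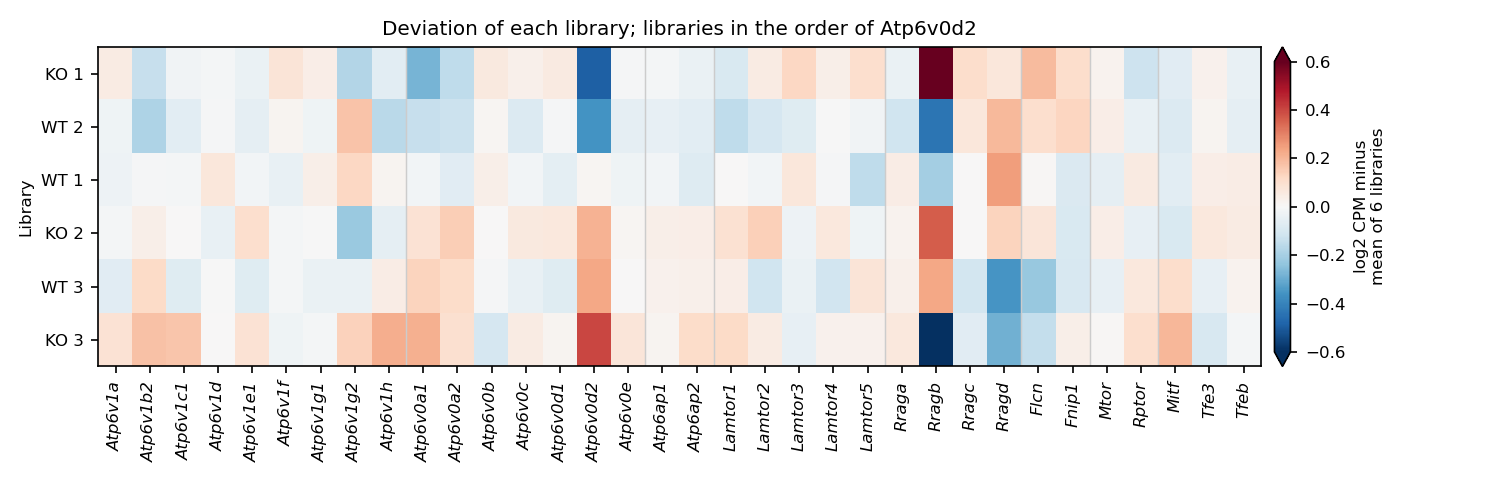
Deviation of each library from the mean of the 6 libraries in log2 CPM (colour) for each tested member (horizontal axis), with libraries ordered by Atp6v0d2 (vertical axis). Atp6v0d2 and Atp6v0a1 pass from low in KO 1 and WT 2 to high in WT 3 and KO 3, Rragd is low in WT 3 and KO 3, and Rragb goes beyond the colour scale in KO 1 and KO 3.

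Genes of the same pathway outside the set gave the same count of calls. Of 24 tested genes for the other V-ATPase subunits, assembly factors and regulators, 0 passed in either direction, 16 lay above 0 and the median log2 fold change was 0.02. Clcn5, an endosomal chloride and proton exchanger, averaged 116 ± 11.5 CPM in WT and 130.1 ± 9.06 CPM in KO (SD, n = 3; log2 fold change 0.16, interval -0.01 to 0.33), and Tmem9, a regulator of the pump, had 0.18 (-0.08 to 0.44). Of 40 tested genes of mTORC1, GATOR, TSC and amino acid sensing, 0 passed, 26 lay above 0 and the median was 0.02. Slc7a5, the leucine transporter, averaged 5.24 ± 1.37 CPM in WT and 7.08 ± 2.05 CPM in KO (SD, n = 3; log2 fold change 0.43, interval -0.14 to 0.999), and Sesn3, a sestrin that acts on GATOR, had 0.27 (-0.11 to 0.65).

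Of 23 tested MiT partners and regulators of TFEB localisation, 0 passed, 15 lay above 0 and the median was 0.02; Map4k3, an amino acid responsive kinase, had -0.11 (-0.29 to 0.08), Ywhaq, a 14-3-3 protein, 0.05 (-0.06 to 0.17), and Tfec 0.07 (-0.17 to 0.31). Of 38 tested genes on a list of TFEB and CLEAR targets, whose promoters were not searched here, 0 passed, 28 lay above 0 and the median was 0.03. Naglu, a lysosomal heparan sulphate hydrolase, averaged 98.1 ± 2.46 CPM in WT and 107 ± 7.96 CPM in KO (SD, n = 3; log2 fold change 0.12, interval -0.02 to 0.26), and Bcl2, an inhibitor of apoptosis, had 0.39 (-0.09 to 0.87). At an unadjusted p under 0.05 edgeR gave 0 genes in each of the 4 lists, and DESeq2 and limma voom called 0.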

How the data were processed

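RNA was isolated with TRIzol and sequenced from VAHTS Universal V6 libraries (per the labels' protocols). The authors deposited raw read counts per gene for 6 libraries; fastp, HISAT2, HTSeq and build mm10 are named in the submitters' processing notes, and the sources used here give no versions, annotation or strand setting. Genotype and replicate came from the titles, and counts of replicates differed by more than sampling noise (chi-square of 9.99 to 29.4 per degree of freedom).

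The test was edgeR 4.0.16 (R 4.3.3) with TMM factors, filterByExpr (minimum count 10) and robust quasi-likelihood fits, adjusted by Benjamini-Hochberg over 12605 genes at 0.05. Standard errors are the size of the log2 fold change over the square root of F. CPM values use TMM-scaled totals. The level of 3 counts is 0.0729 to 0.0812 CPM, and such floors and binomial intervals cover counting error only. Merged exon lengths and overlaps came from GENCODE M21, and gene coordinates and promoters from RefSeq GRCm38.p6, the assembly of mm10. In 9 members, exons overlap another gene. The edgeR test alone was also run on simulated counts, and the outcome is not given here.

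Members and lists were chosen with earlier results of these data known. Every member is named or counted. In each further list the 2 genes with the smallest p at a mean of at least 1 CPM are named, with Tcirg1 and Tfec. The osteoclast genes named, Dcstamp and Oscar among them, were chosen after their values were seen. Alternatives were RLE and upper-quartile factors, other count filters, DESeq2 1.42.0, limma 3.58.1 voom, a replicate block, other gene lengths and promoter windows, and leaving out libraries.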

Additional observations from a re-analysis of the deposited data

How the results depend on the processing

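No member and no gene of the 4 further lists was called under any of the 14 alternatives run, and with the 7 that kept all libraries (RLE or upper-quartile factors, no count filter, a mean of at least 1 CPM, DESeq2, limma voom and the replicate block) no member turned direction. The genes called in all numbered 4, against 17 with DESeq2, 8 with the replicate block and 3 to 5 with each library left out in turn; the cause was not tested. Libraries of the same number deviated from their genotype means with correlations of 0.03, -0.13 and 0.25, so the numbers were not taken to pair the samples, and with the replicate block 0 members were called. With each library left out in turn 16 tested members kept their direction and 18 turned at least once. Of the 16, 11 moved by over 1.5 times at least once: Atp6ap1 ran from 0.00060 to 0.043, Atp6ap2 from 0.034 to 0.11, Atp6v0e from 0.024 to 0.064, Atp6v1c1 from 0.035 to 0.13, Atp6v1d from -0.059 to -0.018, Atp6v1g2 from -0.29 to -0.10, Lamtor1 from 0.013 to 0.13, Lamtor4 from 0.045 to 0.096, Lamtor5 from 0.0024 to 0.12, Mtor from 0.023 to 0.065 and Rptor from -0.11 to -0.0025. Of the 18 that turned, the log2 fold changes ran from -0.085 to 0.15 for Atp6v0a1, -0.00096 to 0.14 for Atp6v0a2, -0.066 to 0.013 for Atp6v0b, -0.083 to 0.32 for Atp6v0d2, -0.031 to 0.13 for Atp6v1b2, -0.0075 to 0.045 for Atp6v1f, -0.0014 to 0.037 for Atp6v1g1, -0.031 to 0.12 for Atp6v1h, -0.013 to 0.16 for Flcn, -0.015 to 0.10 for Fnip1, -0.032 to 0.068 for Lamtor3, -0.069 to 0.093 for Mitf, -0.029 to 0.056 for Rraga, -0.070 to 0.90 for Rragb, -0.024 to 0.063 for Rragc, -0.24 to 0.045 for Rragd, -0.038 to 0.040 for Tfe3 and -0.042 to 0.012 for Tfeb. Without KO 1 and WT 2 together, an alternative chosen after seeing the data, Atp6v1g1 had -0.0094, Lamtor3 -0.061 and Rragb -0.22. Plain counts in place of counts per kb moved the difference in the share of Atp6v1g1 from 0.472 to 0.954 percentage points. The full CLEAR palindrome was in 0% of member promoters, and the 250 bases before the start alone held the core in 24.1%. Low counts limit what can be said of Rragb, Atp6v0e2 and Atp6v1c2.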
